A study of Mus musculus with 20 samples.

Results

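Iron-sulfur cluster assembly genes of the mouse were described here as 8 genes chosen by name: Iscu, Nfs1, Lyrm4, Hscb, Glrx5, Isca1, Isca2 and Nfu1. The platform annotation assigns 12 probe sets to them alone, of 45037 probe sets measured, and no probe set that it shares between several genes names one of them. RNA of C57BL6/J mice of mixed sex was pooled within each tissue and mixed with iron regulatory protein 1 (IRP1), a His-tagged recombinant protein made in E. coli, and a rabbit antibody against it. The IRP1 reactions were set against control reactions run in parallel without the protein, and there were 2 arrays of each reaction for each of 5 tissues, 20 arrays in all. Duodenum, liver and spleen came from mice kept for 21 days after weaning on food with less than 10 mg iron per kg. Bone marrow and brain came from mice of 8 to 10 weeks on iron-normal food, so diet, age and tissue cannot be told apart. Per the labels, each bone marrow or brain pool held 6 mice, and that of a duodenum sample 4. The source field of the labels lists the protein for the controls too, while titles and design text state that controls lacked it. Whether the arrays of a tissue came from separate pools is not stated, so p-values measure the spread between reactions and arrays, which may be technical.

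Iron-sulfur clusters are cofactors of iron and sulfide that carry electrons or hold substrates in enzymes of respiration, DNA repair and metabolism. Mitochondria build them on the scaffold protein Iscu, with sulfur that the cysteine desulfurase Nfs1 and its partner Lyrm4 take from cysteine. The co-chaperone Hscb and the monothiol glutaredoxin Glrx5 help to release and pass on the cluster, and Isca1, Isca2 and Nfu1 act late, on the larger clusters that enzymes such as lipoic acid synthase need. IRP1 is itself a client of such a cluster: with it the protein is the cytosolic aconitase, and without it the protein binds RNA stem-loops called iron-responsive elements (IREs). Developing red cells draw heavily on the pathway for heme synthesis, and loss of Glrx5 in zebrafish causes anaemia.

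The probe sets lay between the 55.0th and the 98.8th percentile of mean signal, so all were read above the middle of the array. The arrays had medians of 5.50 to 5.62 log2 units and standard deviations (SDs) of 1.90 to 2.24. Hybridization controls were low on 3 arrays, at -1.06 and -1.26 relative to the median array in the second IRP1 and control arrays of spleen and at -0.74 in the first control array of bone marrow. Marker genes were highest in their own tissue: 8 of 8 measured enterocyte genes in duodenum, 7 of 7 hepatocyte genes in liver, 6 of 7 B and T cell genes in spleen, 8 of 8 neutrophil precursor genes in bone marrow and 7 of 8 neuron and glia genes in brain. Genes of pancreatic acinar cells were also read, with a mean of 13.42 for duodenum, 9.52 for spleen and 5.20 to 6.09 elsewhere. In spleen, hepatocyte markers averaged 6.39 in the first and 8.11 in the second replicate, and liver held enterocyte markers at 7.89 and 8.80.

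The first comparison asked whether IRP1 held more mRNA of these genes than the control reaction did, and none of them was shown to be enriched. In the mean of the 5 tissues, 0 of 12 probe sets passed an adjusted p of 0.05 in limma, where 1.80% of all probe sets did. At an unadjusted p under 0.05 there were 6 of 12, against 16.4% of all probe sets, and they went both ways. Hscb (0.37) and a probe set of Nfs1 (1431431_a_at, 0.32) were higher with IRP1. Both probe sets of Isca1 (-0.30 and -0.20), another of Nfs1 (1442017_at, -0.23) and the brighter of Nfu1 (-0.18) were lower. The mean differences, IRP1 minus control, ran from -0.30 for Isca1 to 0.37 for Hscb in log2 signal, with a median of 0.02 over the 12, against -0.01 over all probe sets. In this mean 6 of 6 established IRE mRNAs rose, with a median of 1.60. Fth1, the ferritin heavy chain, was the least changed of them at 0.84 (95% confidence interval 0.62 to 1.06). The highest upper bound among the assembly genes was 0.68, for Hscb, which is below that estimate for Fth1 but inside its interval. Tfrc, the transferrin receptor, at 2.19 and Alas2, the erythroid enzyme that begins heme synthesis, at 2.22 were the most changed of these IRE mRNAs.

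**Figure D1:**
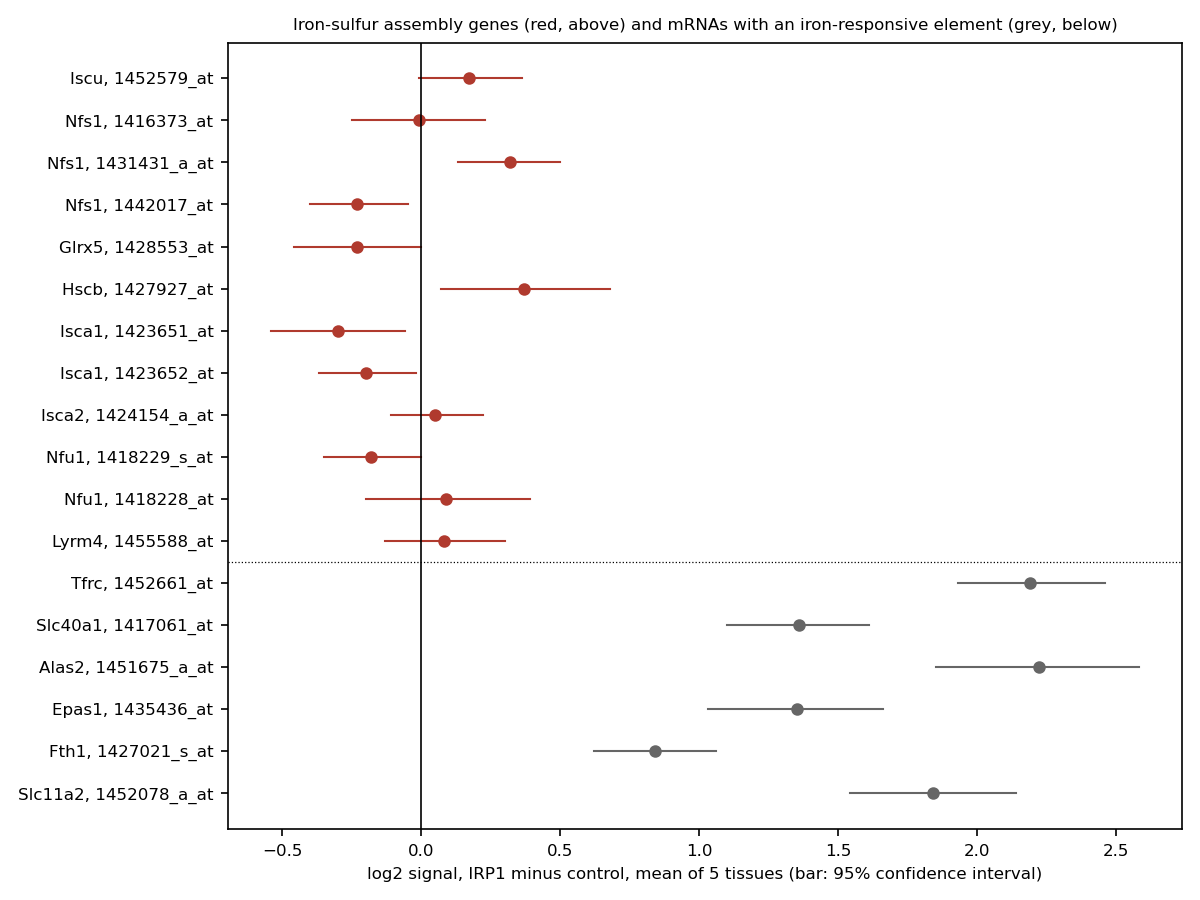
Difference in log2 signal between IRP1 and control reactions, mean of 5 tissues (horizontal axis), for the 12 probe sets of iron-sulfur cluster assembly genes (red, above) and 6 established IRE mRNAs (grey, below). Points are estimates and bars 95% confidence intervals of the fit to 20 arrays. The assembly genes lie between -0.30 and 0.37, and the IRE mRNAs between 0.84 and 2.22.

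Nfs1, the sulfur donor, came nearest to a call and was read differently by its 3 probe sets. The middle one (1431431_a_at) averaged 0.32 higher with IRP1 (interval 0.13 to 0.50, adjusted p = 0.0704) and had a positive difference in 5 of 5 tissues. The brightest (1416373_at) was at -0.01 (interval -0.25 to 0.23) and the dimmest (1442017_at) at -0.23 (interval -0.40 to -0.05, adjusted p = 0.173). In liver the middle probe set read 7.20 and 7.14 in IRP1 arrays, against 6.52 and 6.46 in control arrays. These arrays did not overlap, and the difference of 0.67 had an adjusted p of 0.161. In duodenum the dimmest probe set read 5.42 and 5.44 in IRP1 arrays, against 6.12 and 6.11 in control arrays. There the IRP1 arrays were the low ones, with a difference of -0.68 and an adjusted p of 0.519. The probe sets of Nfs1 therefore gave no single direction. The middle probe set passed the test without the second IRP1 array of duodenum (0.36, adjusted p = 0.0482), without the second IRP1 array of brain (0.36, adjusted p = 0.0316) and with quantile normalization of the deposited values (0.35, adjusted p = 0.0414).

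Iscu, the scaffold, read 9.31 and 9.34 in IRP1 arrays of liver, against 8.94 and 8.66 in control arrays of liver. The IRP1 arrays were both higher there, and the difference was 0.52 (interval 0.11 to 0.93, adjusted p = 0.256). In brain Iscu read 8.56 and 8.91 in IRP1 arrays, against 8.99 and 8.87 in control arrays, and the arrays overlapped. Its mean difference was 0.17 (interval -0.01 to 0.36, adjusted p = 0.341). With quantile normalization the liver difference was 0.83 (adjusted p = 0.019) and the mean 0.27 (adjusted p = 0.0371), both past the threshold. The IRP1 arrays of liver had SDs of 1.90 and 1.95, against 2.11 and 1.99 in its controls.

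Hscb, the co-chaperone that works with the heat shock protein Hspa9, had the highest mean difference, 0.37 (interval 0.07 to 0.68, adjusted p = 0.202), or 1.295-fold. In liver it read 9.37 and 8.69 in IRP1 arrays, against 7.70 and 8.77 in control arrays. A single control array was low, and the reactions overlapped at a difference of 0.79. In spleen it read 8.88 and 8.84 in IRP1 arrays, against 8.44 and 8.49 in control arrays, with no overlap (0.40, adjusted p = 0.741). In bone marrow its difference was -0.16, the only negative one among the 5 tissues.

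Isca1, a late-acting carrier protein, had the lowest mean difference, -0.30 by its brighter probe set (1423651_at, interval -0.54 to -0.06, adjusted p = 0.191) and -0.20 by its dimmer one (1423652_at, interval -0.37 to -0.02, adjusted p = 0.255). In spleen the brighter probe set read 9.64 and 10.13 in IRP1 arrays, against 10.58 and 10.80 in control arrays. The dimmer one read 7.67 and 7.59 in IRP1 arrays of spleen, against 8.05 and 8.36 in control arrays. Both probe sets were lower in both IRP1 arrays of liver, spleen and brain. In bone marrow they differed the other way, by 0.27 and 0.13, with overlapping arrays. The mean array SD, IRP1 minus control, differed by -0.12 in liver, -0.10 in spleen, -0.09 in brain, -0.00 in duodenum and 0.07 in bone marrow. With array SD as a covariate 0 of 12 probe sets passed, and the estimates moved both ways. Isca1 was then at -0.12 and -0.11, Glrx5 at -0.06 and Hscb at 0.23, nearer to 0. Iscu was at 0.29 (adjusted p = 0.0651), the brightest probe set of Nfs1 at 0.17 and the dimmer one of Nfu1 at 0.27, farther from 0. The part of array spread in the differences was not tested beyond this fit.

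Glrx5, the glutaredoxin, averaged -0.23 (interval -0.46 to 0.00, adjusted p = 0.311). Its brain arrays read 9.98 and 10.42 with IRP1, against 10.65 and 10.57 in controls, and in liver it read 10.75 and 10.93 with IRP1, against 11.48 and 11.07 in controls. The IRP1 arrays were the low ones in both tissues. The remaining genes were nearer to 0 than Glrx5. Isca2 was at 0.05 (interval -0.11 to 0.22) and Lyrm4 at 0.08 (interval -0.13 to 0.30). Nfu1 was at -0.18 (interval -0.35 to -0.00) by its brighter and 0.09 (interval -0.20 to 0.39) by its dimmer probe set. In liver the brighter probe set of Nfu1 read 9.56 and 9.59 in IRP1 arrays, against 10.08 and 10.02 in control arrays (-0.48, adjusted p = 0.277). The dimmer one did not differ there (0.01, adjusted p = 0.997).

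Within single tissues, 0 of 12 probe sets passed the test in any of the 5. The shares of all probe sets that passed were 0.104% in duodenum, 0.184% in liver, 0.102% in spleen, 0.131% in bone marrow and 0.124% in brain. Of the 6 established IRE mRNAs, 2 passed in duodenum, 3 in liver, 1 in spleen, 6 in bone marrow and 3 in brain. A missing call in a single tissue therefore does not show that an mRNA was not enriched. In liver Hscb at 0.79 and the middle probe set of Nfs1 at 0.67 lay above Epas1 at 0.63 and Fth1 at 0.54. In duodenum Slc40a1, at 0.21, lay below Nfu1 (1418228_at) at 0.52, Hscb at 0.35 and Isca2 at 0.33. Slc40a1 also lay below Iscu and the brightest probe set of Nfs1 there, at 0.31 each. In spleen, bone marrow and brain every assembly probe set lay below every one of these IRE mRNAs. By the F-test of differences in IRP1 effect between tissues 0 of 12 passed, against 0.0111% of all probe sets. At an unadjusted p under 0.05 there was 1 of 12, the dimmest probe set of Nfs1, against 4.83%. Counted over 12 probe sets in 5 tissues, both IRP1 arrays lay above both controls in 11 of 60 cases (18.3%, against 17.8% of all probe sets and tissues). They lay below both controls in 12 of 60 (20%, against 19.7%), and 37 overlapped. These shares are near the background. The IRP1 arrays were above the controls for 5 of 12 probe sets in duodenum (16.6% of all probe sets), 2 in liver (19.2%), 1 in spleen (17.6%), 3 in bone marrow (19.0%) and 0 in brain (16.7%). They were below for 1 in duodenum (21.6%), 4 in liver (26.0%), 2 in spleen (22.1%), 0 in bone marrow (11.8%) and 5 in brain (16.9%).

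**Figure D2:**
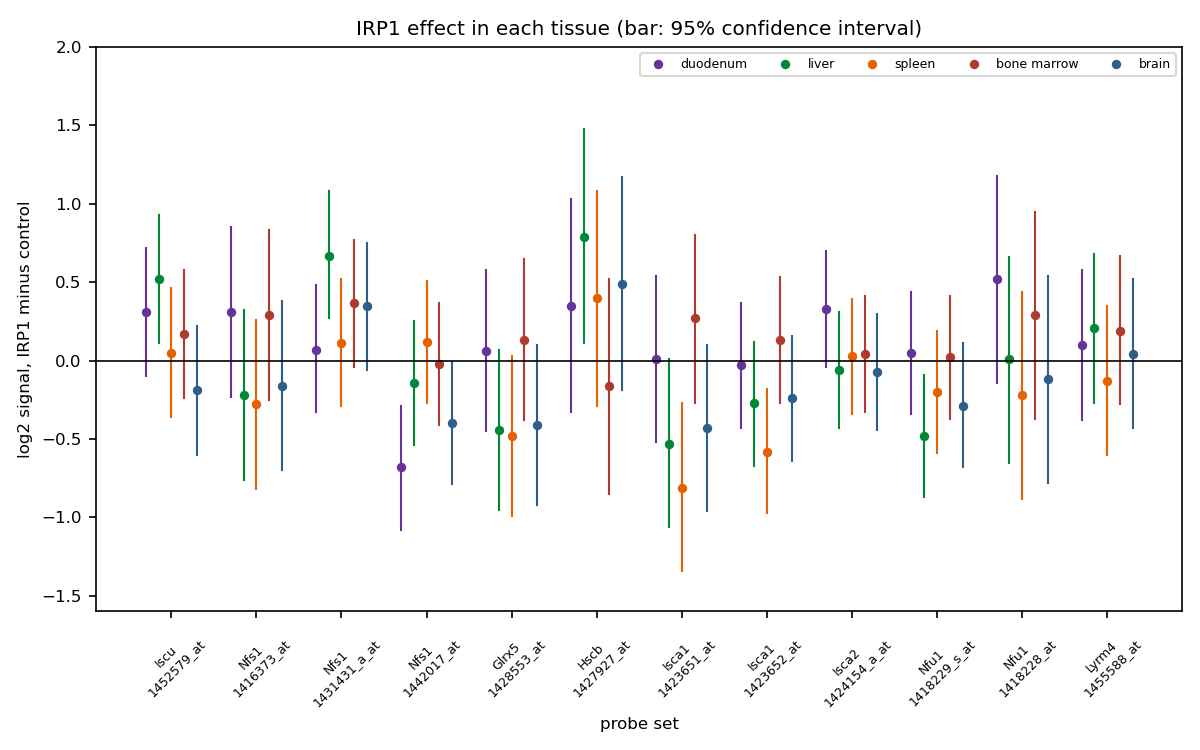
Difference in log2 signal between IRP1 and control reactions (vertical axis) in each of 5 tissues (colours), for the 12 probe sets. Points are estimates and bars 95% confidence intervals, 2 arrays against 2. Bars exclude 0 for 1 of 12 probe sets in duodenum, 4 in liver, 2 in spleen, 0 in bone marrow and 1 in brain. At the matching unadjusted p under 0.05, the counts over all 45037 probe sets were 1838, 6083, 4286, 2248 and 2957. None of the 12 passed the adjusted test.

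The second comparison set the tissues against each other, over both reactions. The IRP1 and control array of each replicate number were averaged, which left 2 averages a tissue. The levels are those of RNA that came down in the reactions, with or without IRP1, and not of total RNA. They cannot tell fewer cells of a type from less RNA per cell. By the F-test, 11 of 12 probe sets differed between tissues (91.7%, against 72.1% of all probe sets). For the brightest probe set of each gene this was 7 of 8 genes (87.5%, against 80.9% of all genes with 1 symbol). Of the 120 pairs of tissues over the 12 probe sets, 55 passed the pairwise test (45.8%, against 42.4% over all probe sets). Bone marrow differed from brain for 6 of 12 probe sets (48.2% of all probe sets), from duodenum for 7 (36.9%), from liver for 7 (44.2%) and from spleen for 6 (22.4%), and it was the higher tissue for 5 in each case. Brain differed from duodenum for 7 (46.5%), from liver for 5 (52.2%) and from spleen for 5 (44.1%), mostly as the lower tissue. Duodenum differed from liver for 4 (41.3%) and from spleen for 3 (38.4%), and liver from spleen for 5 (49.6%). The assembly genes did not share one tissue order: Glrx5, Isca1, Isca2 and Hscb were highest in bone marrow, Nfs1 in liver by 2 of its 3 probe sets, Nfu1 in duodenum and Lyrm4 in brain.

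**Figure D3:**
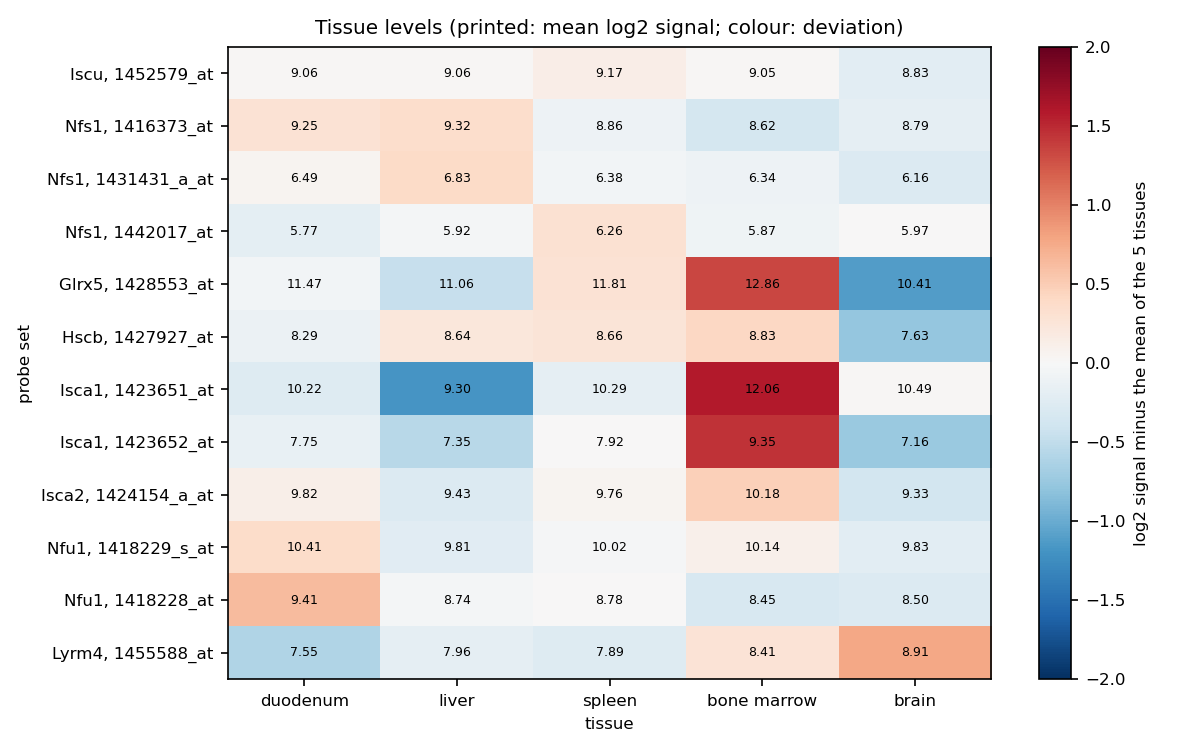
Mean log2 signal (printed) of the 12 probe sets in 5 tissues, each the mean of 2 averages of an IRP1 and a control array. Colour gives the deviation of a tissue from the mean of the 5 for that probe set, so colours, not printed values, may be compared between lines. Bone marrow is highest for Glrx5, both probe sets of Isca1, Isca2 and Hscb.

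The scaffold Iscu was the most even gene. Its level was 9.17 ± 0.20 in spleen (SD, n = 2 averages, as for all levels that follow), 9.06 ± 0.01 in duodenum, 9.06 ± 0.09 in liver, 9.05 ± 0.15 in bone marrow and 8.83 ± 0.08 in brain. The range was 0.34, or 1.265-fold, with an adjusted p of 0.267, and none of its 10 pairs of tissues passed. With quantile normalization Iscu did pass the F-test (adjusted p = 0.00665), with liver then above duodenum, brain and bone marrow: duodenum minus liver was -0.49 (adjusted p = 0.00337), brain minus liver -0.48 (adjusted p = 0.0027) and bone marrow minus liver -0.36 (adjusted p = 0.0157).

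Nfs1 was highest in liver by its brightest probe set, at 9.32 ± 0.14, followed by 9.25 ± 0.07 in duodenum, 8.86 ± 0.49 in spleen, 8.79 ± 0.15 in brain and 8.62 ± 0.20 in bone marrow. Bone marrow minus liver was -0.70 (SE 0.21, adjusted p = 0.0177), that is 1.627-fold lower, and bone marrow minus duodenum -0.64 (adjusted p = 0.0329). These calls were lost in 3 and 5 of 17 settings, and the F-test of this probe set in 8, among them the floor on dim values and the control arrays alone. Neighbours in this order did not differ past the test, but with quantile normalization duodenum minus liver was -0.58 (adjusted p = 0.0144). The middle probe set gave 6.83 ± 0.04 in liver and 6.16 ± 0.04 in brain, a brain-minus-liver difference of -0.67 (adjusted p = 0.00191) that passed in 17 of 17 alternative settings. Its calls for bone marrow minus liver (-0.49) and liver minus spleen (0.45) were lost in 3 and 5 of 17 settings. With the control arrays alone its F-test did not pass (adjusted p = 0.106), and liver averaged 6.49 there, against 6.45 in duodenum. The dimmest probe set ran its own way, highest in spleen at 6.26 ± 0.02 and lowest in duodenum at 5.77 ± 0.00. The SD of that duodenum level hides a gap between reactions, as its arrays ran from 5.42 to 6.12. In control arrays alone this probe set averaged 6.12 in duodenum, and it was lowest in bone marrow at 5.88. The dimmest probe set correlated with the other 2 at r = -0.17 and -0.16 over the 10 averages, and its F-test was lost with quantile normalization and with the control arrays alone, among others.

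Lyrm4, the desulfurase's small partner protein, had a tissue order of its own. Its level was 8.91 ± 0.16 in brain, 8.41 ± 0.10 in bone marrow, 7.96 ± 0.01 in liver, 7.89 ± 0.32 in spleen and 7.55 ± 0.12 in duodenum. Brain exceeded duodenum by 1.36 (SE 0.16, adjusted p = 3.38e-05), or 2.57-fold. Brain also exceeded liver by 0.94 and spleen by 1.02, and these 3 brain differences passed in 17 of 17 settings. Arrays of brain ranged from 8.60 to 9.17 and those of duodenum from 7.40 to 7.79, with no overlap. The gap between brain and bone marrow (bone marrow minus brain -0.50, adjusted p = 0.0255) was lost in 4 of 17 settings, the control arrays alone among them. Liver and spleen did not differ past the test, and duodenum minus liver passed in 5 of 17 settings.

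Hscb was set apart by brain. Its level was 8.83 ± 0.15 in bone marrow, 8.66 ± 0.01 in spleen, 8.64 ± 0.14 in liver, 8.29 ± 0.13 in duodenum and 7.63 ± 0.10 in brain. Bone marrow minus brain was 1.20 (adjusted p = 1.91e-05). Brain minus spleen was -1.03 (adjusted p = 7.00e-05), brain minus liver -1.01 (adjusted p = 8.77e-05) and brain minus duodenum -0.66 (adjusted p = 0.00167). Brain was thus lower than each of the other tissues. Brain arrays ran from 7.00 to 8.12, and a single liver control array at 7.70 and a duodenum control array at 7.94 reached into that range. Bone marrow, spleen and liver did not differ past the test in any setting. Duodenum and liver did with quantile normalization (duodenum minus liver -0.74, adjusted p = 7.57e-04). With the control arrays alone the brain differences to liver and to duodenum did not pass, while those to bone marrow and spleen did.

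Glrx5 was highest in bone marrow and lowest in brain. Its bone marrow arrays read 12.74 and 13.12 with IRP1 and 12.72 and 12.87 in controls, and its brain arrays were given above. The level was 12.86 ± 0.19 in bone marrow, 11.81 ± 0.37 in spleen, 11.47 ± 0.26 in duodenum, 11.06 ± 0.08 in liver and 10.41 ± 0.13 in brain. The lowest bone marrow array lay above the highest array of every other tissue, which was 12.28 in spleen. Bone marrow exceeded brain 5.499-fold (log2 2.46, SE 0.19, adjusted p = 1.11e-06), liver 3.501-fold (1.81, adjusted p = 1.73e-05), duodenum 2.628-fold (1.39, adjusted p = 1.47e-04) and spleen 2.077-fold (1.05, adjusted p = 0.0024). These 4 calls held in 17 of 17 settings. Spleen and duodenum, and duodenum and liver, were neighbours that did not differ past the test; with quantile normalization both pairs passed, duodenum minus spleen at -0.88 (adjusted p = 1.52e-04) and duodenum minus liver at -0.39 (adjusted p = 0.0263), which turned the sign of the second pair.

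Isca1 had the widest range of the 8 genes by its brighter probe set, 2.77. By its dimmer one the range was 2.18, below the 2.46 of Glrx5. By the brighter probe set of Isca1 the bone marrow arrays read 12.04 and 12.35 with IRP1 and 11.76 and 12.11 in controls. The 4 liver arrays read 8.86 to 9.80. The level was 12.06 ± 0.23 in bone marrow, 10.49 ± 0.23 in brain, 10.29 ± 0.25 in spleen, 10.22 ± 0.09 in duodenum and 9.30 ± 0.05 in liver. Bone marrow exceeded liver 6.812-fold (2.77, SE 0.17, adjusted p = 2.29e-07), and it exceeded each of the other tissues by 1.57 to 1.85. By the dimmer probe set the level was 9.35 ± 0.18 in bone marrow and 7.16 ± 0.08 in brain, and bone marrow exceeded the other tissues by 1.43 to 2.18. Bone marrow was highest by both probe sets in 17 of 17 settings, and no array of another tissue reached its arrays. The 2 probe sets disagreed on brain, which was second by the brighter one, above liver by 1.20 (adjusted p = 1.55e-04), and last by the dimmer one, where brain minus spleen was -0.75 (adjusted p = 5.95e-04). By the brighter probe set brain, spleen and duodenum did not differ past the test, but with quantile normalization brain minus duodenum was 0.75 (adjusted p = 3.81e-04) and duodenum minus spleen -0.43 (adjusted p = 0.0158).

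Isca2, the partner of Isca1 in late cluster assembly, was also highest in bone marrow, with a smaller range. Its level was 10.18 ± 0.12 in bone marrow, 9.82 ± 0.07 in duodenum, 9.76 ± 0.20 in spleen, 9.43 ± 0.08 in liver and 9.33 ± 0.06 in brain. Bone marrow exceeded brain by 0.85 (adjusted p = 2.99e-04) and liver by 0.75 (adjusted p = 9.04e-04), in 17 of 17 settings each. Its margin over duodenum did not pass, but did in 5 of 17 settings, with 0.53 (adjusted p = 0.0018) under quantile normalization. Its margin over spleen, 0.42 (adjusted p = 0.0465), was kept in 4 of 17 settings. Duodenum was above liver by 0.38 (adjusted p = 0.0413); with quantile normalization that difference was -0.20 (adjusted p = 0.166).

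Nfu1, which hands clusters to late client enzymes, was highest in duodenum by both probe sets. The brighter gave 10.41 ± 0.04 in duodenum, 10.14 ± 0.19 in bone marrow, 10.02 ± 0.21 in spleen, 9.83 ± 0.00 in brain and 9.81 ± 0.01 in liver. The dimmer gave 9.41 ± 0.02 in duodenum and 8.45 ± 0.51 in bone marrow, which was last. Brain minus duodenum was -0.58 (adjusted p = 0.00526) by the brighter and -0.91 (adjusted p = 0.0143) by the dimmer. Duodenum was above liver by 0.60 (adjusted p = 0.00551) by the brighter probe set. Its margin over bone marrow, the next tissue, did not pass there (bone marrow minus duodenum -0.27, adjusted p = 0.167). By the dimmer one duodenum minus liver (0.67, adjusted p = 0.0615) and duodenum minus spleen (0.63, adjusted p = 0.0841) did not pass. Those 2 pairs passed in 8 and 5 of 17 settings. With quantile normalization the brighter probe set no longer differed past the F-test (adjusted p = 0.555): brain minus duodenum was -0.14 (adjusted p = 0.311) and duodenum minus liver -0.05 (adjusted p = 0.773). Both of these calls were also lost with the control arrays alone, and the dimmer probe set's call between brain and duodenum in 5 of 17 settings. The F-test was lost in 4 of 17 settings by the brighter and in 6 by the dimmer probe set, among them those without either duodenum average. Markers of mitochondrial content, such as the citrate synthase gene Cs, were also highest in duodenum, for 6 of 8 genes, at 12.28 (arrays 12.22 to 12.36), against 11.05 to 11.34 in the other tissues. Pancreatic acinar genes were also read in the duodenum samples, at 14.02 in the first and 12.83 in the second replicate. The part of either set of genes in the level of Nfu1 was not tested.

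**Figure D4:**
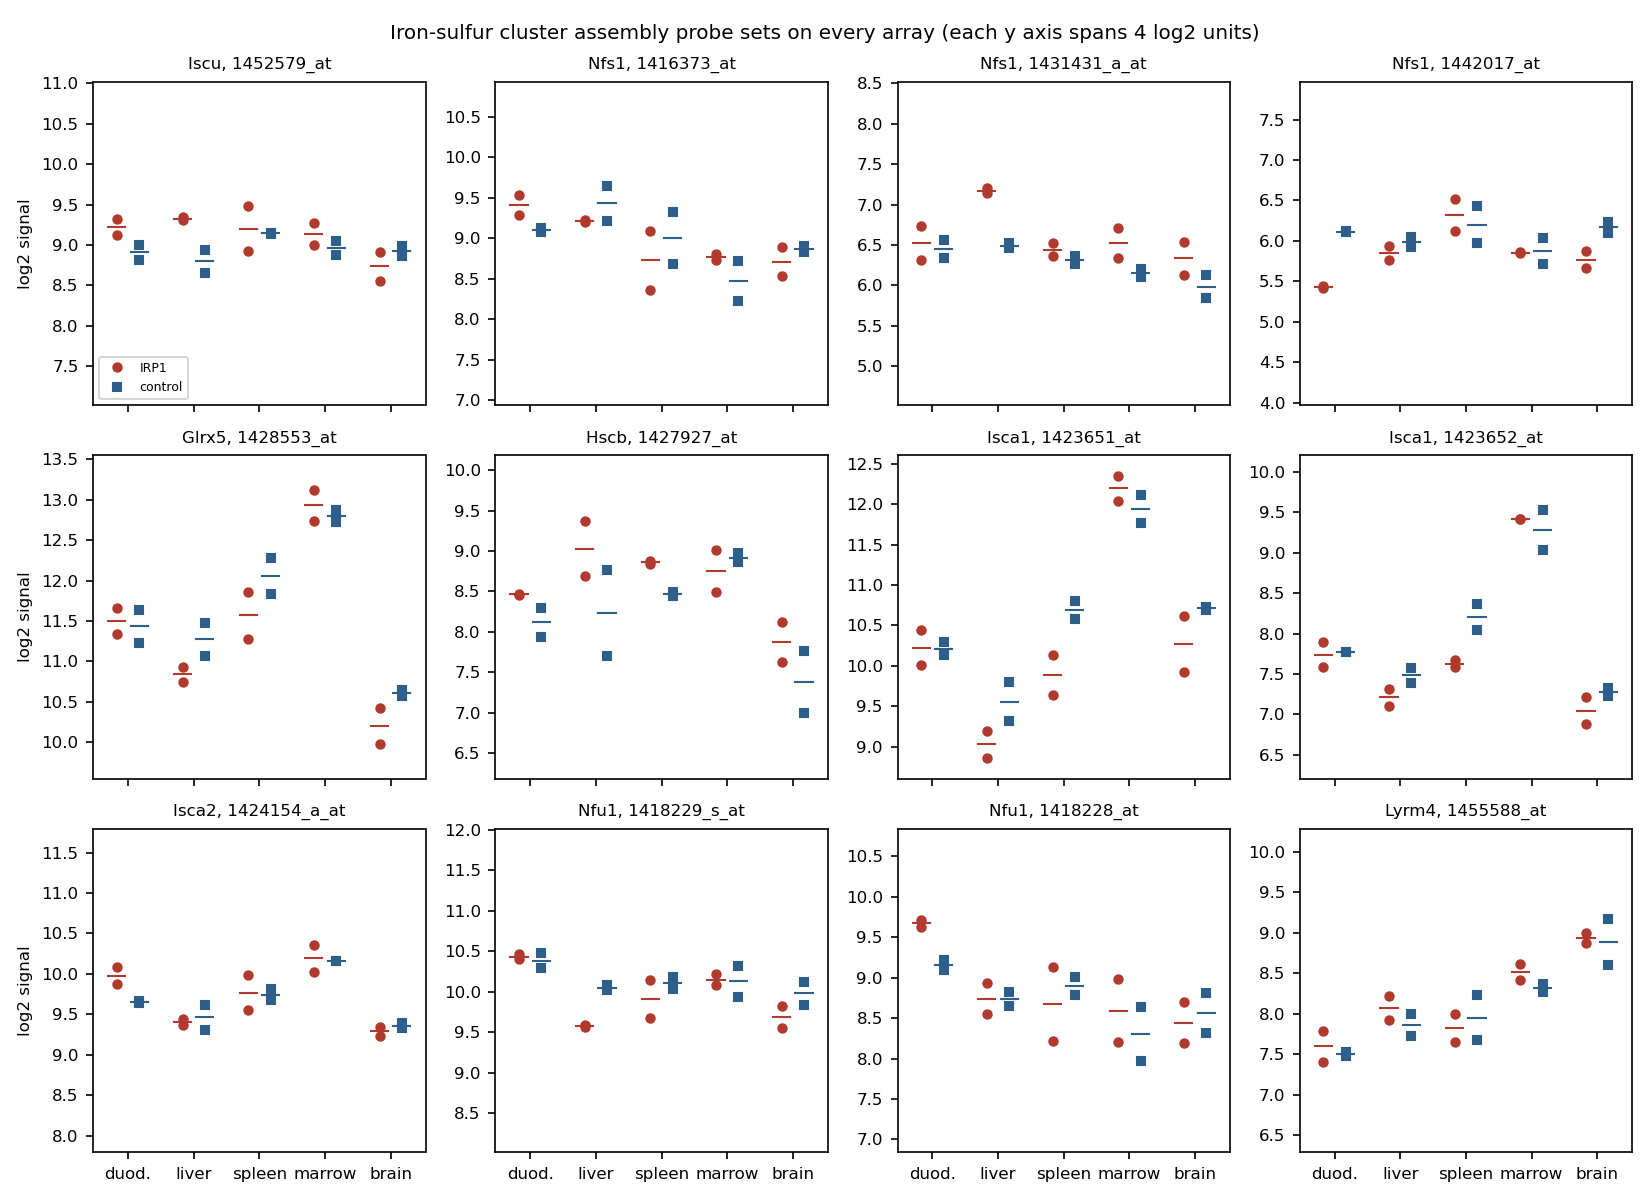
Log2 signal (vertical axes, 4 log2 units each) of the 12 probe sets on every array, by tissue. Red circles are IRP1 arrays and blue squares control arrays, 2 each, with bars at their means. For Glrx5 and both probe sets of Isca1 every bone marrow array lies above every array of the other tissues.

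Bone marrow, where 4 of the genes were highest, is also where markers of red cell and neutrophil precursors had their highest mean signal. Of 8 listed erythroid genes 5 were measured, and 4 of those were highest in bone marrow. Their mean was 10.35 in bone marrow (arrays 10.11 to 10.58), 8.93 in spleen (8.59 to 9.07) and 4.32 to 4.80 in the other tissues. Klf1, a red cell transcription factor, was at 11.52 in bone marrow, 9.53 in spleen and 5.58 in brain, while the probe set of Hba-a1 read only 3.73 to 4.15 in all tissues. Neutrophil precursor markers averaged 13.32 in bone marrow and 8.13 in spleen, against 5.73 to 6.11 elsewhere. The part of either cell type in the levels of Glrx5, Isca1, Isca2 and Hscb was not tested.

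Glrx5, Isca1 and Isca2 moved alike across the averages, and the stretches before their starts are shown with that of Lyrm4, which had another order. Over the 10 averages Glrx5 correlated with Isca2 at r = 0.96 and with the dimmer and brighter probe sets of Isca1 at 0.95 and 0.71. Isca2 correlated with the dimmer and brighter probe sets of Isca1 at 0.92 and 0.75, and the 2 probe sets of Isca1 with each other at 0.86. Hscb, also highest in bone marrow, correlated with Glrx5 at 0.78, with Isca2 at 0.64 and with the dimmer and brighter probe sets of Isca1 at 0.66 and 0.21. These values describe 10 averages that share tissues, arrays and normalization, and they carry no test. Lyrm4 ran opposite to Nfu1 (r = -0.77 with its dimmer probe set) and to Iscu (-0.73). The 2 probe sets of Nfu1 gave 0.72 and the brighter 2 of Nfs1 0.61.

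**Figure D5:**
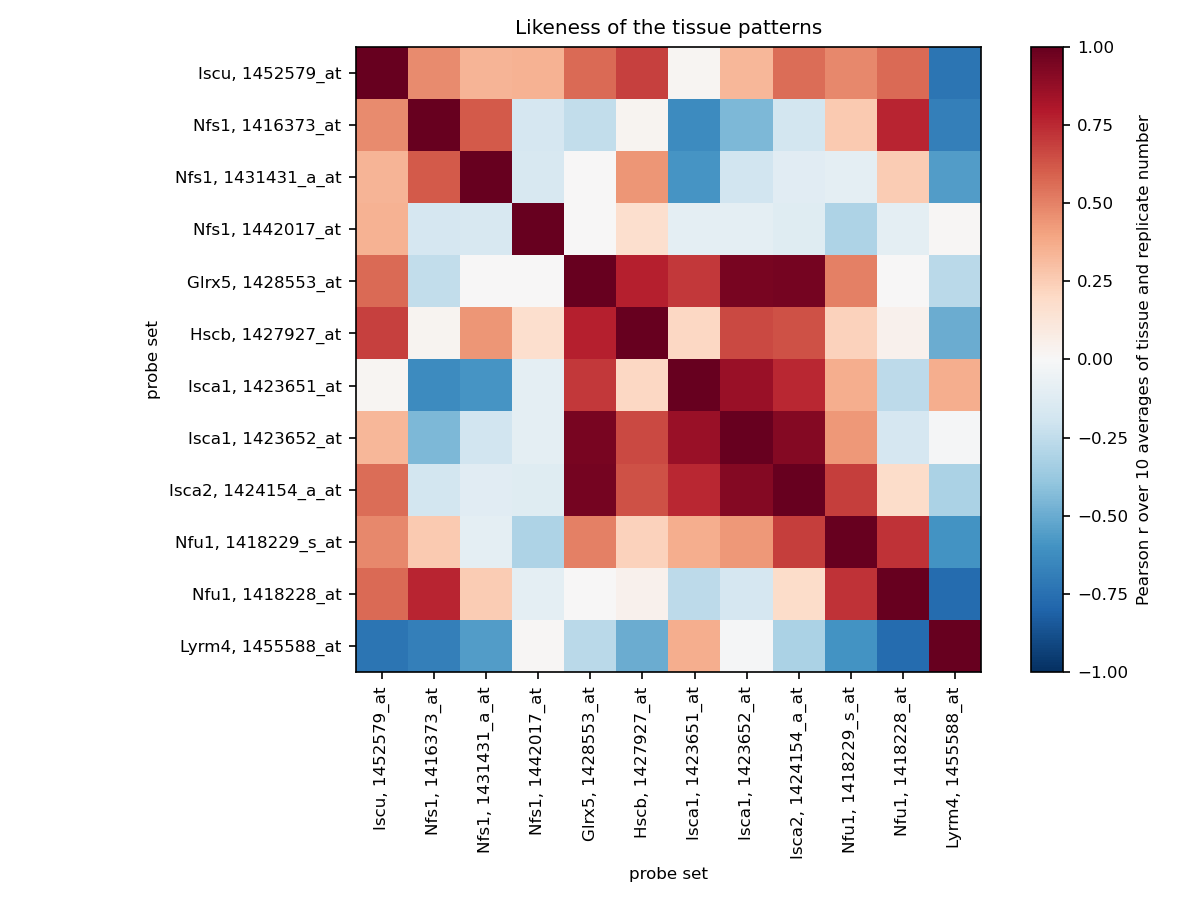
Pearson r between the 12 probe sets (both axes) over 10 averages of tissue and replicate number, as colour. Glrx5, Isca1 and Isca2 have values of 0.71 to 0.96 among themselves, Hscb has 0.21 to 0.78 with them, and Lyrm4 reaches -0.77 with Nfu1.

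RefSeq promoter sequences were matched for 6 of the 8 genes, and Hscb and Iscu were not matched. The 250 bases before the annotated start, in GRCm38.p6, are printed on the gene's own strand for Glrx5 (chr12:105032368-105032617, plus strand), Isca1 (chr13:59769790-59770039, minus strand), Isca2 (chr12:84773020-84773269, plus strand) and Lyrm4 (chr13:36117358-36117607, minus strand). Capitals mark CCAAT or its reverse complement ATTGG, a motif chosen after the sequences were seen.
Glrx5: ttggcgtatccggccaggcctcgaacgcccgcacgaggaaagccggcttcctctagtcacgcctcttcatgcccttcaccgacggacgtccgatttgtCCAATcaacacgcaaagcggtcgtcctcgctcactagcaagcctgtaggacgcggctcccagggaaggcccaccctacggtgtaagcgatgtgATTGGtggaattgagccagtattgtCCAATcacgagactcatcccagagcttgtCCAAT
Isca1: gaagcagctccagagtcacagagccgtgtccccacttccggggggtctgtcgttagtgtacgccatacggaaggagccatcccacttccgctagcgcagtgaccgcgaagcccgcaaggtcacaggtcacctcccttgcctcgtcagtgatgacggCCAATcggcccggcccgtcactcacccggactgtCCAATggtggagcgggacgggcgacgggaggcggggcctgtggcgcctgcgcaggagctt
Isca2: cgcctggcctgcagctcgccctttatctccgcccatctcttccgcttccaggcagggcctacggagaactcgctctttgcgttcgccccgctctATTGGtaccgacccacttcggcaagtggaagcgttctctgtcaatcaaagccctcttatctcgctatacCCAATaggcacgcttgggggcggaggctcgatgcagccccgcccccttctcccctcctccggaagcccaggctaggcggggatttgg
Lyrm4: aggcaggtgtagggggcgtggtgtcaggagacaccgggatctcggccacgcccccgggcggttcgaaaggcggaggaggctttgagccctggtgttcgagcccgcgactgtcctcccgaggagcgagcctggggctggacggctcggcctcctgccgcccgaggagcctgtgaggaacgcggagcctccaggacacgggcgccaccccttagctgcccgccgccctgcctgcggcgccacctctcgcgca
The motif stands 4 times before Glrx5, 2 times each before Isca1 and Isca2, 1 time before Nfu1, and 0 times before Lyrm4 and Nfs1. Of 32851 promoters of the same length, 33.8% hold it at least 1 time, 10.1% at least 2 times and 0.84% at least 4 times. The motif AGATAA, read on both strands with no overlap with CCAAT, stands 2 times before Isca2, as in 0.938% of promoters, and 0 times before the other 5. An IRE-like string (C, any 5 bases, then CAGTG; own strand only) was found in the first 50 bases after the start in 1.58% of promoters and in none of the 6. It was also in none of the 3 IRE genes with a promoter entry, Tfrc, Alas2 and Fth1, so this window says nothing about IREs. A match of letters is a description and not a binding site.

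For each gene the most alike patterns among 18185 other genes were read from r over the same 10 averages. Glrx5 was nearest to Rnf139 (r = 0.991) and Ibtk (0.990), Isca2 to Tut7 (0.988) and Ube2j2 (0.983), and Isca1 to 1700037H04Rik (0.980) and 2900060N12Rik (0.979). Nfu1 was nearest to Coa5 (0.982) and Lasp1 (0.974), Hscb to Gmps (0.967) and Tec (0.963), and Lyrm4 to Npas4 (0.952) and E130114P18Rik (0.949). For Nfs1 they were Mrpl10 (0.944) and Erg28 (0.941), and for Iscu Gatd1 (0.939) and Ppp4r3a (0.929). The values are the highest of many and rest on 5 tissues.

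In the wider pathway few genes were called for IRP1. Among genes listed as mitochondrial partners of the assembly machinery, such as the chaperone Hspa9, 9 genes were measured, 0 rose and 0 fell in the mean of the tissues (median -0.10, range -0.25 to 0.32). With quantile normalization 2 of them were called higher, and 0 to 1 in the other settings. Of the cytosolic assembly machinery, 9 genes were measured, 0 rose and 1 fell, where 1.03% of all probe sets fell and 0.773% rose. That gene was Nubp1, a cytosolic scaffold protein, at -0.33 (adjusted p = 0.021). Of 23 measured client proteins, 0 rose and 3 fell, all subunits of the respiratory chain: Ndufs7 at -0.56 (adjusted p = 0.0205), Ndufs8 at -0.55 (adjusted p = 0.0407, by an x_at probe set, which can cross-hybridize) and Sdhb at -0.54 (adjusted p = 0.0485). The client median was -0.19 and that of 8 mitochondrial content genes, of which 0 were called, -0.20. The call was lost for Ndufs7 in 8, for Nubp1 in 5, for Ndufs8 in 19 and for Sdhb in 20 of 28 alternative settings, and 0 to 4 clients fell across them; 0 fell with array SD as a covariate.

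Between tissues the wider pathway differed about as often as other genes. The F-test passed for 8 of 9 mitochondrial partners (88.9%), 7 of 9 cytosolic genes (77.8%) and 20 of 23 clients (87.0%), shares near the 80.9% of all genes. Fdx1, a mitochondrial ferredoxin, had a range of 2.53, with 11.67 in duodenum and 9.14 in brain. Bola3, a late-acting factor that works with Nfu1, was at 11.10 in bone marrow and 8.97 in brain, a range of 2.13. Ciao2a, a cytosolic targeting factor, was at 11.57 in duodenum and 8.59 in brain. Among clients, Fech, the last enzyme of heme synthesis, stood at 13.67 in bone marrow, 11.64 in spleen and 9.01 in brain. Dpyd, which breaks down pyrimidines, had a range of 7.71, Xdh, which makes urate, one of 7.04, and Rsad2, an antiviral enzyme, one of 6.67.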

How the data were processed

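RNA from 20 immunoprecipitations was measured on Affymetrix Mouse430_2 arrays, with 50 µg of total RNA per reaction and about 120 ng of recovered RNA per array. The deposited values are log2 signals per probe set. Per the series design text, the authors obtained them by RMA or by MAS5 with quantile normalization, and which of these made the table is not stated. Signals near the floor or top of the scale understate fold changes.

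The 45037 probe sets without Affymetrix controls were fitted with limma 3.58.1 in R 4.3.3, with no filter. One fit had 10 groups of 2 arrays (IRP1 minus control), the other 5 groups of 2 averages (tissues). P-values are two-sided, adjusted by Benjamini-Hochberg over all probe sets, and called under 0.05. A gene with several probe sets is represented by its brightest. All probe sets of the 8 genes were named, up to 4 genes of each other list, and 2 likeness genes a member. Members and lists were chosen with earlier results of these data known. Alternatives were other normalizations, floors and filters, control arrays alone, a replicate block and leaving out arrays; an array SD covariate and leaving out 3 arrays were added after the data were seen. Scripts were tested on simulated data. Promoters are RefSeq's (GRCm38.p6). Figures used Python 3.11.15 and matplotlib 3.10.9.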

Additional observations from a re-analysis of the deposited data

How the results depend on the processing

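The count of the 12 probe sets called for IRP1 in the mean of the tissues, 0, became 2 with quantile normalization and 0 to 1 when single arrays were left out. In liver it became 1 with quantile normalization. In duodenum, spleen, bone marrow and brain, and for differences between tissues, it was 0 in all settings run. Of 2076 recomputed IRP1 effects, 78 turned their sign without a call in either setting. With the replicate block the mean count was 0. Replicate differences of the IRP1 and control arrays correlated at 0.272 in duodenum, -0.074 in liver, 0.533 in spleen, -0.039 in bone marrow and 0.119 in brain, and the numbers were not taken to pair the samples in the IRP1 comparison. The tissue comparison averaged arrays of 1 number in case they share a pool; with no averaging 11 of 12 F-tests and 63 of 120 pairs passed. Tissue F-tests passed for 6 of 12 with the control arrays alone and for 7 to 11 when single averages were left out. Without a duodenum average 7 passed. Tissue pairs numbered 33 of 120 with the control arrays alone, and 42 to 59 when single averages were left out. Duodenum minus liver turned its sign with quantile normalization for Iscu (-0.49), Glrx5 (-0.39), Isca2 (-0.20) and Nfu1 (-0.05, 1418229_s_at); the cause was not tested. The number of arrays limits the precision, and dim probe sets such as 1442017_at of Nfs1 lie nearest to the floor.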
